A study of Mus musculus with 19 samples.

Results

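Chemokines are small secreted proteins that direct the movement of leukocytes, and their receptors are G protein-coupled receptors on the cells that migrate. The genes described here were the rows of the splenocyte expression table whose gene symbol begins with Ccl, Cxcl, Xcl, Ccr, Cxcr or Xcr followed directly by a digit. Most symbols in the table are in capitals, so that case was ignored, and each gene is named here by the mouse symbol that RefSeq gives its Entrez Gene number. The rule found 56 of the 27179 genes in the table, 38 ligands and 18 receptors. Chemokine family genes with other symbols, such as Cx3cr1, Pf4 and the atypical receptors, fall outside the rule and are given at the end.

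FCG (4 core genotype) mice separate the sex chromosomes from the gonads. Sires with the Tg(Sry)2Ei transgene and the dl1Rlb deletion were bred to C57BL/6J dams, so that Sry is missing from the Y chromosome and the males carry it on autosome 3. The groups were XX mice with ovaries (XXF, n = 5), XY mice with ovaries (XYF, n = 4), XX mice with testes (XXM, n = 5) and XY mice with testes (XYM, n = 5), called females and males by gonad. All 19 mice had received heat-killed Streptococcus pneumoniae (HKSP), and there was no group without it. Spleens were taken 7 days later and pressed through a strainer, red blood cells were lysed, and polyA RNA was sequenced, 1 library per mouse. Neither their age nor a batch is given. The sample titles are numbered S1 to S5 for XXM, S6 to S10 for XYM, S11 to S15 for XXF and S16 to S19 for XYF mice. What this numbering stands for is not stated, and it cannot be told apart from group. The comparisons ask how XX vs. XY sex chromosomes, and testes vs. ovaries, go with splenocyte expression.

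The values are log2(RPKM + 1), where RPKM is the number of reads scaled by gene length and library size. This scale understates the change of low genes, so that a threshold of size is harder for such genes to reach. Whole read numbers could be recovered from the values, and the libraries held between 11263753 and 19962022 reads. The median was 16703648 in XXF, 17579367.5 in XYF, 16156083 in XXM and 19061692 in XYM mice. Reads on Xist, on 4 genes of the Y chromosome and on Sry matched the stated genotype in all mice, with 0 exceptions. Mice of a group differed by a chi-square per gene of 20.7 or more, and 1 would be sampling noise. The splenocyte label was checked with B cell and T cell markers. The 8 B cell markers summed to an RPKM of at least 1324 and the 8 T cell markers to at least 359 in every mouse.

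XYF F9 and XYM 9 stood apart from the other mice of their groups. The 8 neutrophil markers summed to an RPKM of 55153 in XYF F9, and the rest of that group lay between 7959 and 16593. It was 56836 in XYM 9, and the rest of that group lay between 3129 and 9224. The 7 monocyte markers summed to 1682 in XYF F9 and 1871 in XYM 9, against at most 693 in the other 17 mice. S100a9 was the most abundant neutrophil marker and Chil3 the most abundant monocyte marker. Where a call of a member or marker given below with its value was lost without both mice together, the value without them is given in the same paragraph, a choice made after seeing the data.

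In the spleen, ligands made by stromal cells place lymphocytes in the white pulp, where Cxcl13 draws Cxcr5+ B cells into follicles and Ccl19 and Ccl21 draw Ccr7+ T cells into the T cell zone. Inflammatory ligands made by activated lymphocytes and myeloid cells act on Ccr1, Ccr2, Cxcr2 and Cxcr3 of effector cells. In bulk RNA of a mixed suspension, fewer cells of a type and less RNA per cell cannot be told apart, and this holds for every difference given below.

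The tests took in the 14186 genes that reached an RPKM of 0.5 in 4 mice or more, among them 17 ligands and 17 receptors. The receptors were better represented than the ligands. Of the 18 receptors only Ccr1l1 missed the filter, whereas 21 of the 38 ligands did, and 7 ligands had no read in any mouse. These were Ccl11, Ccl20, Ccl26, Cxcl15, Ccl21a, Ccl21b and Ccl21c. Over all 319671253 reads, a count of 0 allows up to 3 reads, counting error only. The 3 Ccl21 genes are near-identical copies, as are Ccl27a and Ccl27b, and how reads that match several genes were counted is not given, so that their values are uncertain.

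Ccl5 was the most abundant ligand, with a mean RPKM of 278 over the 19 mice, followed by Ccl6 at 74.7 and Xcl1 at 18.1. Ccl5 (Entrez Gene 20304, chromosome 11 from 83525778 to 83530518, on GRCm38 as are all positions here) draws T cells, NK cells and monocytes and is stored by memory T cells and NK cells. Ccl5 stood at 8.19, 8.49, 8.36, 8.26 and 8.60 in XXF F1 to F5 and at 7.64, 8.19, 7.88 and 7.19 in XYF F6 to F9. In males, Ccl5 stood at 8.51, 8.35, 7.95, 7.97 and 8.15 in XXM 2, 5, 6, 7 and 8 and at 7.42, 8.03, 8.07, 8.50 and 7.85 in XYM 9, 12, 13, 15 and 16. The XXF mice all lay above the XYF mice, although XXF F1 and XYF F7 were equal to 2 decimals, and in XYF F9 and XYM 9 it was the lowest of their groups. Ccl5 was called in none of the comparisons, with differences of 0.66 (adjusted p = 0.129) between XXF and XYF mice and 0.21 (adjusted p = 0.471) between XXM and XYM mice.

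Of the receptors, Cxcr4 had the highest mean RPKM, 229, followed by Cxcr5 at 115 and Ccr7 at 99.1. Cxcr4, the receptor of Cxcl12 (Entrez Gene 12767, chromosome 1 from 128588199 to 128592299), holds plasma cells and progenitors in their niches and is carried by most leukocytes. Cxcr4 stood at 6.96, 7.78, 7.96, 7.70 and 8.34 in XXF F1 to F5 and at 7.37, 7.73, 7.75 and 7.82 in XYF F6 to F9. In males, Cxcr4 stood at 8.27, 7.59, 7.81, 8.40 and 7.79 in XXM 2, 5, 6, 7 and 8 and at 7.85, 7.89, 7.65, 8.09 and 7.59 in XYM 9, 12, 13, 15 and 16. Its groups overlapped in all comparisons, and the differences that compare 2 groups lay between 0.08 and 0.22, none of them called. Ccr7 (Entrez Gene 12775, chromosome 11 from 99144199 to 99155077) directs naive T cells and mature dendritic cells to the T cell zone. Ccr7 stood at 6.91, 6.99, 6.93, 7.06 and 7.27 in XXF F1 to F5 and at 6.33, 7.07, 6.44 and 5.46 in XYF F6 to F9. In males, Ccr7 stood at 6.74, 6.67, 6.33, 6.76 and 6.50 in XXM 2, 5, 6, 7 and 8 and at 5.77, 6.67, 6.24, 6.68 and 6.22 in XYM 9, 12, 13, 15 and 16. Every XXF mouse was above every XXM mouse, and the 2 lowest values were those of XYF F9 and XYM 9. The difference between XXF and XYF mice was 0.71 (adjusted p = 0.146) and that between XXM and XXF mice -0.43 (adjusted p = 0.295), so that Ccr7 was not called.

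**Figure D1:**
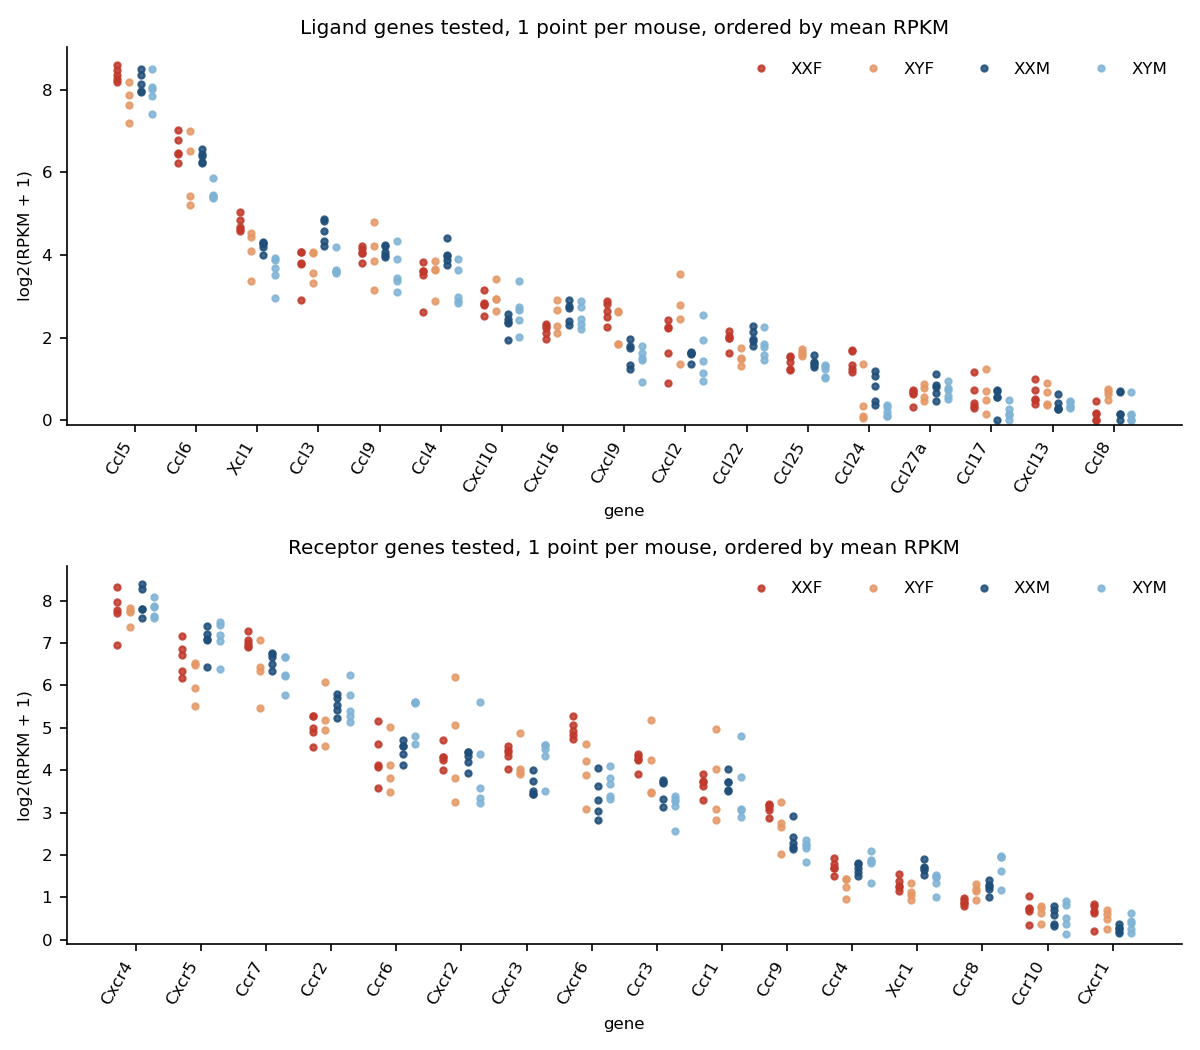
Levels of the 17 ligands (upper panel) and 16 of the 17 receptors (lower panel) that were tested, as log2(RPKM + 1), with 1 point per mouse and genes ordered by mean RPKM. Ccl5 and Cxcr4 lead their panels, and Cxcr2, Ccr1 and Cxcl2 spread most within groups.

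The ligands of the stroma were at or near the floor. Cxcl13, which attracts B cells through Cxcr5 (Entrez Gene 55985, chromosome 5 from 95956939 to 95961068), had between 4 and 20 reads per mouse. Cxcl13 stood at 0.39, 0.74, 0.50, 0.99 and 0.53 in XXF F1 to F5 and at 0.38, 0.68, 0.90 and 0.40 in XYF F6 to F9. In males, Cxcl13 stood at 0.65, 0.28, 0.28, 0.43 and 0.31 in XXM 2, 5, 6, 7 and 8 and at 0.29, 0.46, 0.33, 0.44 and 0.36 in XYM 9, 12, 13, 15 and 16. The groups overlapped, and Cxcl13 was called in none of the comparisons. Its difference between males and females over both sex chromosome complements was -0.23 (adjusted p = 0.0632). This is below the threshold of size, on a scale that understates the change of so low a gene. Ccl19 had 1 read in 1 mouse, and Cxcl12 had 2 to 46 reads per mouse, at most an RPKM of 0.369. Of the 9 stromal and endothelial markers, 7 missed the filter as well. Col1a1, Col1a2, Col3a1, Pdpn and Dcn had maxima of 0.178, 0.0751, 0.0723, 0.178 and 0.185 RPKM, and Pecam1, which leukocytes and platelets also express, was the most abundant at a mean of 63.4.

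The other members tested and called in none of the comparisons differed widely in level. Among the ligands were Ccl9 (mean RPKM 15), which acts on Ccr1, Cxcl10 (5.67), Cxcl16 (4.61), the ligand of Cxcr6, and Ccl22 (2.64), the ligand of Ccr4. Ccl25, the ligand of Ccr9, Ccl27a, Ccl17 and Ccl8 had mean RPKM between 0.276 and 1.65. The receptors Ccr2 (41.2), Cxcr2 (21.6) and Ccr1 (12.7) of monocytes and neutrophils were well expressed. Ccr4, Xcr1, Ccr8, Ccr10 and Cxcr1 had mean RPKM between 0.374 and 2.16. Ccr8, chosen after its values were seen, had an RPKM of 0.735 to 0.995 in XXF and 0.999 to 1.66 in XXM mice. It was 0.922 to 1.51 in XYF and 1.27 to 2.91 in XYM mice, of which 4 of 5 lay above every XYF mouse. XXM and XXF mice did not overlap for Ccr8, as for 23.5% of the members tested and 9.71% of all genes. The 15 members that had reads and missed the filter, among them Cxcl1, Cxcl3, Cxcl5, Ccl2, Ccl7, Ccl12 and Cxcl11, had at most an RPKM of 1.16 in any mouse. Of these, Cxcl14, chosen after its values were seen, had 0 reads in all 10 XX mice, 13, 3, 15 and 17 in XYF F6 to F9 and 8, 0, 18, 7 and 4 in XYM 9, 12, 13, 15 and 16, and was not tested.

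Cxcr2, Ccr1 and Cxcl2 varied most between mice of the same group. The SD within groups, pooled over the 4 groups on the log2(RPKM + 1) scale, was 0.80 for Cxcr2, 0.62 for Ccr1 and 0.62 for Cxcl2, a ligand of Cxcr2. Its median over the 34 members tested was 0.34, and Ccl25 varied least, at 0.13. In XYF F9 and XYM 9, Cxcr2 stood at 6.20 and 5.61, the highest values of their groups and of all mice.

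In the comparison of XX with XY mice, the ligands Xcl1, Ccl6, Ccl24, Ccl3 and Ccl4 were higher in XX mice of at least 1 gonadal sex. Among receptors, Cxcr6 was higher in XXF and Cxcr3 was lower in XXM mice. Calling a gene took an adjusted p under 0.1 (limma, Benjamini-Hochberg over the 14186 genes) and a log2 difference beyond 0.585 in size. XXF against XYF mice gave 2 called members of 34 (5.88%), both higher, where 0.670% of all genes tested were called higher and 0.712% lower. XXM against XYM mice gave 4 called higher (11.8%) and 1 called lower (2.94%), where 1.13% of all genes were called higher and 1.83% lower. The difference averaged over both gonadal sexes gave 3 called members (8.82%), all higher, where 0.515% of all genes were called higher and 1.21% lower. The median difference over the 34 members tested was 0.10 in females, 0.16 in males and 0.15 over both, beside 0.06, 0.01 and 0.03 over all genes tested.

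The counts moved with single mice. In females the count of 34 was 7 without XYF F7, where 5.99% of all genes were called, 5 without XYF F8 (2.64%) and 5 without XYM 9 (2.94%). It was 1 without XXF F1, XXF F3, XXM 8 or XYM 13 (0.839% to 1.42%), and 0 without XXF F2, F4 or F5 or XYF F6 or F9 (0.395% to 0.959%). In males it was 3 without XXF F4, XXM 7 or XXM 8 (2.08% to 4.53%), 1 without XXF F5 or XYM 13 (0.451% to 1.67%), and 0 without XXM 2, 5 or 6 or XYM 12 or 16 (0.360% to 0.684%). With all mice, 1.38% of all genes were called in females and 2.96% in males.

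**Figure D2:**
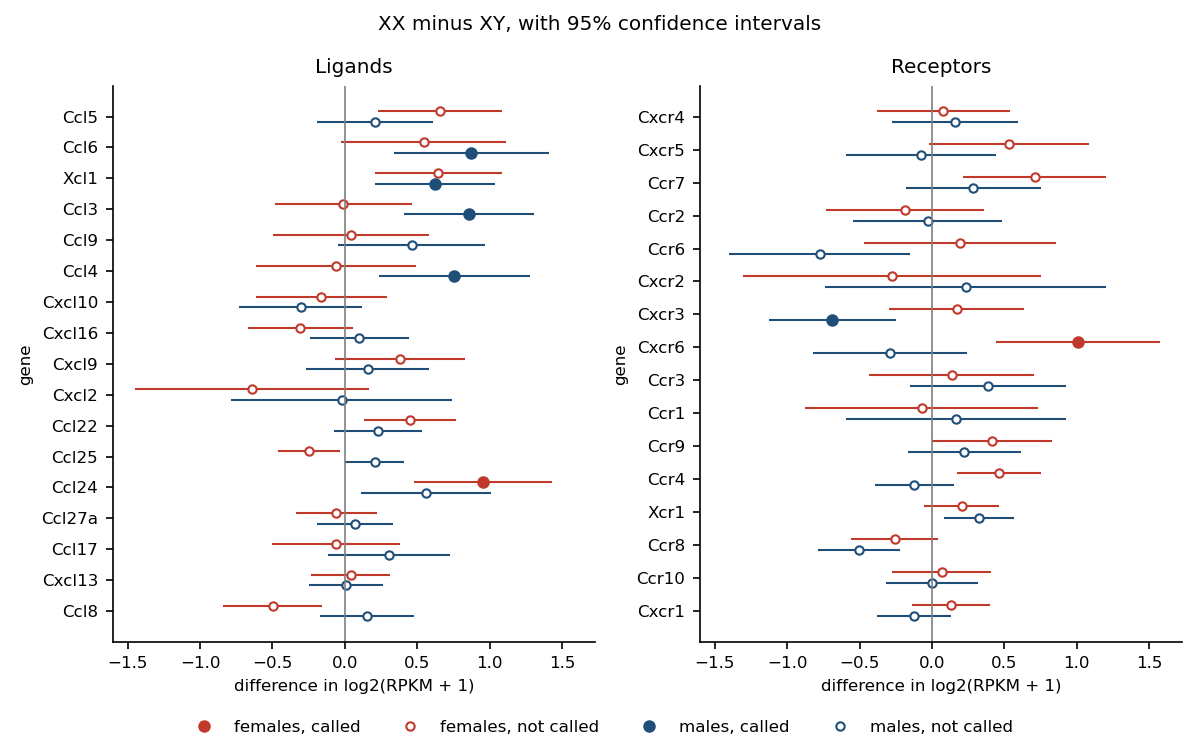
Differences in log2(RPKM + 1) between XX and XY mice (horizontal axis) for the 17 ligands and 16 of the 17 receptors tested, in females (red) and males (blue), with lines for 95% confidence intervals. Filled points are called, and those to the right of 0 are higher in XX mice.

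Xcl1, or lymphotactin (Entrez Gene 16963, chromosome 1 from 164931644 to 164935522), is made by NK cells and activated CD8+ T cells and attracts dendritic cells that carry Xcr1. Xcl1 stood at 4.62, 5.05, 4.84, 4.58 and 4.69 in XXF F1 to F5 and at 4.10, 4.53, 4.43 and 3.38 in XYF F6 to F9. In males, Xcl1 stood at 4.33, 4.01, 4.19, 4.28 and 4.28 in XXM 2, 5, 6, 7 and 8 and at 2.96, 3.87, 3.51, 3.94 and 3.69 in XYM 9, 12, 13, 15 and 16. Every XXF mouse was above every XYF mouse and every XXM mouse above every XYM mouse, with the lowest values in XYF F9 and XYM 9. The mean was 4.76 ± 0.19 in XXF (SD, n = 5), 4.11 ± 0.52 in XYF (SD, n = 4), 4.22 ± 0.13 in XXM (SD, n = 5) and 3.59 ± 0.39 in XYM mice (SD, n = 5). The difference was 0.63 (SE 0.14, adjusted p = 0.0249) over both gonadal sexes, and this was called. Among males it was 0.62 (SE 0.20, adjusted p = 0.0905), also called, and in females 0.65 (SE 0.21, adjusted p = 0.141), not called. The call over both was lost without any 1 of XYF F9 and XYM 9 (difference 0.51 to 0.55, adjusted p 0.0283 to 0.0427), since the difference then fell below 0.585, with array weights (0.52), and without XYF F9 and XYM 9 together it was 0.43 (adjusted p = 0.0184). The call in males was lost without any 1 of XXF F4 and F5, XXM 2, 5, 6, 7 and 8 and XYM 9, 12, 13 and 16 (difference 0.46 to 0.69, adjusted p 0.102 to 0.212), without XYF F9 and XYM 9 together (0.46), and with no filter on low values (0.62), only the compared groups in the fit (0.62) or limma-voom (0.67), with an adjusted p of 0.00717 to 0.212 over all alternatives. Its exons share 98 of 523 bases with a gene on the other strand, and the strand setting of the counting is not given.

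Ccl6, made by macrophages and other myeloid cells and a ligand of Ccr1 (Entrez Gene 20305, chromosome 11 from 83587886 to 83593087), was also higher in XX mice. Ccl6 stood at 6.45, 6.22, 6.78, 7.02 and 6.47 in XXF F1 to F5 and at 5.44, 7.01, 5.20 and 6.53 in XYF F6 to F9. In males, Ccl6 stood at 6.24, 6.40, 6.25, 6.57 and 6.45 in XXM 2, 5, 6, 7 and 8 and at 5.44, 5.39, 5.85, 5.43 and 5.42 in XYM 9, 12, 13, 15 and 16. All 5 XXM mice lay above the XYM mice, whereas XYF F7 and XYF F9 overlapped with the XXF mice. The mean was 6.59 ± 0.31 in XXF (SD, n = 5), 6.04 ± 0.86 in XYF (SD, n = 4), 6.38 ± 0.14 in XXM (SD, n = 5) and 5.51 ± 0.20 in XYM mice (SD, n = 5). The difference was 0.87 (SE 0.26, adjusted p = 0.0810) in males and 0.71 (SE 0.19, adjusted p = 0.0495) over both gonadal sexes, and both were called. In females it was 0.54 (adjusted p = 0.283), not called. The call over both was lost without XYF F8 (difference 0.57, adjusted p 0.0756), below the threshold of size, and the call in males without any 1 of XXF F5, XXM 2, 5 and 6 and XYM 12, 13 and 16 (difference 0.84 to 0.96, adjusted p 0.101 to 0.181), and with no filter on low values (0.87), with an adjusted p of 0.0110 to 0.181 over all alternatives.

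Ccl24, or eotaxin-2 (Entrez Gene 56221, chromosome 5 from 135569935 to 135573123), attracts eosinophils through Ccr3 and was a weakly expressed gene, with 1 to 49 reads per mouse. Ccl24 stood at 1.17, 1.71, 1.35, 1.67 and 1.24 in XXF F1 to F5 and at 0.35, 1.37, 0.06 and 0.11 in XYF F6 to F9. In males, Ccl24 stood at 0.47, 0.82, 0.37, 1.19 and 1.08 in XXM 2, 5, 6, 7 and 8 and at 0.11, 0.37, 0.11, 0.21 and 0.33 in XYM 9, 12, 13, 15 and 16. The XXF mice were high, and XYF F7 lay among them while the other XYF mice and all XYM mice were low. The mean was 1.43 ± 0.25 in XXF (SD, n = 5), 0.47 ± 0.61 in XYF (SD, n = 4), 0.79 ± 0.36 in XXM (SD, n = 5) and 0.23 ± 0.12 in XYM mice (SD, n = 5). XX minus XY, the difference was 0.95 (SE 0.23, adjusted p = 0.0531) in females and 0.76 (SE 0.16, adjusted p = 0.0138) over both, and both were called. In males it was 0.56 (SE 0.21, adjusted p = 0.124) and was not called, although 4 of the 5 XXM mice lay above every XYM mouse. The RPKM was 0.288 to 1.29 in XXM and 0.0777 to 0.293 in XYM mice. Since the log2(RPKM + 1) scale understates the change of low genes, a pseudocount of 0.1 gave 2.31 in females and 1.94 over both, and limma-voom on the recovered reads 2.87 and 2.46. The call in females was lost without any 1 of XXF F2, F4 and F5 and XYF F6 and F9 (difference 0.83 to 1.0, adjusted p 0.101 to 0.223), also without XYF F9 and XYM 9 together (0.83), and with only the compared groups in the fit (0.95), with an adjusted p of 0.00171 to 0.223 over all alternatives.

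Ccl3 and Ccl4, neighbouring genes on chromosome 11 whose products attract effector T cells and monocytes, were called higher in XXM than in XYM mice. By the positions given below, Ccl4 begins within Ccl3, and the strand setting of the counting is not given. Ccl3 stood at 2.92, 4.08, 3.79, 4.08 and 3.81 in XXF F1 to F5 and at 3.32, 4.07, 4.04 and 3.56 in XYF F6 to F9. In males, Ccl3 stood at 4.23, 4.34, 4.84, 4.59 and 4.88 in XXM 2, 5, 6, 7 and 8 and at 3.61, 3.58, 4.18, 3.57 and 3.65 in XYM 9, 12, 13, 15 and 16. Every XXM mouse was above every other mouse in Ccl3. Ccl4 stood at 2.63, 3.84, 3.62, 3.62 and 3.53 in XXF F1 to F5 and at 3.67, 3.86, 3.64 and 2.88 in XYF F6 to F9. In males, Ccl4 stood at 4.42, 3.97, 3.88, 3.77 and 4.01 in XXM 2, 5, 6, 7 and 8 and at 3.0, 2.85, 3.65, 3.90 and 2.88 in XYM 9, 12, 13, 15 and 16. For Ccl4, XYM 13 and XYM 15 came close to the XXM mice, and XYM 15 lay above XXM 6 and XXM 7. In males the XX minus XY difference was 0.86 (SE 0.21, adjusted p = 0.0602) for Ccl3 (Entrez Gene 20302, chromosome 11 from 83647843 to 83649378) and 0.76 (SE 0.25, adjusted p = 0.0958) for Ccl4 (Entrez Gene 20303, chromosome 11 from 83648624 to 83664683). In females it was -0.01 (adjusted p = 0.981) for Ccl3 and -0.06 (adjusted p = 0.912) for Ccl4, neither called. Ccl3 was also called between XXM and XXF mice, at 0.84 (SE 0.21, adjusted p = 0.0224), and that call held without each mouse in turn. The call of Ccl3 between XXM and XYM mice was lost without any 1 of XXM 2, 5 and 6 and XYM 12 and 16 (difference 0.79 to 0.94, adjusted p 0.1001 to 0.143), and that of Ccl4 without any 1 of XXF F4 and F5, XYF F6 and F8, XXM 2, 5, 6 and 8 and XYM 9, 12, 13 and 16 (difference 0.65 to 0.85, adjusted p 0.103 to 0.243), and with a pseudocount of 0.1 (0.82), no filter on low values (0.76), only the compared groups in the fit (0.76), array weights (0.58) or limma-voom (0.80), with an adjusted p of 0.0351 to 0.243 over all alternatives.

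Cxcr6, the receptor of Cxcl16 (Entrez Gene 80901, chromosome 9 from 123806477 to 123811754), marks NKT cells, resident T cells and other effector lymphocytes. Cxcr6 stood at 4.84, 5.27, 5.07, 4.73 and 4.93 in XXF F1 to F5 and at 4.23, 4.61, 3.90 and 3.10 in XYF F6 to F9. In males, Cxcr6 stood at 3.64, 4.06, 3.03, 2.83 and 3.30 in XXM 2, 5, 6, 7 and 8 and at 3.32, 3.81, 3.69, 4.10 and 3.39 in XYM 9, 12, 13, 15 and 16. The XXF mice were above all other mice, with no overlap. The mean was 4.97 ± 0.21 in XXF (SD, n = 5), 3.96 ± 0.64 in XYF (SD, n = 4), 3.37 ± 0.49 in XXM (SD, n = 5) and 3.66 ± 0.32 in XYM mice (SD, n = 5). The XX minus XY difference was 1.01 (SE 0.27, adjusted p = 0.0811) in females, called, and -0.29 (adjusted p = 0.453) in males, not called. The call in females was lost without any 1 of XXF F1, F2, F3, F4 and F5, XYF F6 and F9, XXM 8 and XYM 13 (difference 0.72 to 1.10, adjusted p 0.101 to 0.337), without XYF F9 and XYM 9 together (0.72), and with no filter on low values (1.01), median ratio rescaling (0.93) or only the compared groups in the fit (1.01), with an adjusted p of 0.0234 to 0.337 over all alternatives. A larger difference stood between XXM and XXF mice.

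Cxcr3, the receptor of Cxcl9 and Cxcl10 on effector T cells and NK cells, is X-linked (Entrez Gene 12766, chromosome X from 101731535 to 101734147). Cxcr3 stood at 4.47, 4.57, 4.43, 4.02 and 4.35 in XXF F1 to F5 and at 4.04, 3.96, 4.88 and 3.91 in XYF F6 to F9. In males, Cxcr3 stood at 3.45, 4.0, 3.74, 3.44 and 3.51 in XXM 2, 5, 6, 7 and 8 and at 3.52, 4.34, 4.51, 4.61 and 4.60 in XYM 9, 12, 13, 15 and 16. The XXM mice were low, and XYM 9 was as low as they were, while XYF F8 was the highest of all. The mean was 4.37 ± 0.21 in XXF (SD, n = 5), 4.20 ± 0.46 in XYF (SD, n = 4), 3.63 ± 0.24 in XXM (SD, n = 5) and 4.31 ± 0.46 in XYM mice (SD, n = 5). Cxcr3 was lower in XXM than in XYM mice, with a difference of -0.69 (SE 0.21, adjusted p = 0.0866), and lower in XXM than in XXF mice, with -0.74 (SE 0.21, adjusted p = 0.0416). Both were called, and the second call held without each mouse in turn. The first was lost without any 1 of XXF F5, XXM 2, 5, 6 and 7 and XYM 12, 13 and 16 (difference -0.78 to -0.62, adjusted p 0.103 to 0.208), and with no filter on low values (-0.69), only the compared groups in the fit (-0.69) or limma-voom (-0.73), with an adjusted p of 0.00507 to 0.208 over all alternatives. In females the XX minus XY difference was 0.17 (adjusted p = 0.687), not called.

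Markers of NK cells also differed between XX and XY mice. Of the 7 NK cell markers, 6 were called higher in XX mice among females, 3 among males and 6 over both. Of all genes tested, 0.670%, 1.13% and 0.515% were called higher there. Over both, Gzma differed by 1.57 (adjusted p = 0.00282), Klra8 by 1.28 (adjusted p = 0.00145), Klrb1c by 1.19 (adjusted p = 0.00139), Ncr1 by 1.10 (adjusted p = 0.00406), Klrk1 by 0.85 (adjusted p = 0.00830) and Prf1 by 0.68 (adjusted p = 0.0392). The median of the list was 1.26 in females, 0.74 in males and 1.10 over both. Its summed RPKM was 405, 439, 430, 544 and 504 in XXF F1 to F5 and 153, 252, 174 and 87.5 in XYF F6 to F9. In males it was 411, 344, 422, 396 and 358 in XXM 2, 5, 6, 7 and 8 and 67.2, 212, 210, 303 and 173 in XYM 9, 12, 13, 15 and 16. Every XX mouse was above every XY mouse, Gzma was the most abundant marker, and none was at 0 in all mice. The lowest sums were those of XYF F9 and XYM 9, the mice with the lowest Xcl1 and Ccl5 of their groups. The XX minus XY difference was 0.65 in females, not called, and 0.62 in males for Xcl1, -0.01 and 0.86 for Ccl3, and -0.06 and 0.76 for Ccl4. For Xcl1 in males it was 0.46 without XYF F9 and XYM 9 together, not called. Without XYF F9 and XYM 9 together, Prf1 was not called over both (0.47, adjusted p = 0.0307), the other calls held, and the median of the list was 1.01 in females, 0.44 in males, of whom only XYM 9 was left out, and 0.88 over both. The part of NK cell numbers in the Xcl1, Ccl3, Ccl4 and Ccl5 values was not tested.

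Among myeloid markers, Marco of marginal zone macrophages was called higher in XX mice over both gonadal sexes (1.02, adjusted p = 0.00864), as 1 of 9 macrophage markers, and the list's median was 0.09. Among males Hmox1 and Marco were called higher in XX mice, and among females Marco was called higher and Cd5l lower. Of all genes tested, 0.515% were called higher over both, 1.13% in males and 0.670% in females, and 0.712% lower in females. Without XYF F9 and XYM 9 together, the median over both was -0.09, and Marco was not called among females, while the other calls held. The macrophage markers summed to an RPKM of 587, 634, 616, 674 and 550 in XXF F1 to F5 and 664, 1144, 507 and 488 in XYF F6 to F9. In males they summed to 502, 338, 457, 851 and 578 in XXM 2, 5, 6, 7 and 8 and 273, 381, 418, 422 and 402 in XYM 9, 12, 13, 15 and 16. XYF F7 had the highest sum of all mice, and it also had the highest Ccl6, Ccl24 and Ccr3 of its group. Hmox1 was the most abundant of these markers, and none was at 0 in all mice. Fcgr4 (-1.90, adjusted p = 0.000523) and Ly6c2 (-0.75, adjusted p = 0.0422) of monocytes, Mpo (-1.70, adjusted p = 0.0539) and Elane (-1.47, adjusted p = 0.0784) of neutrophils, and Epx (-0.86, adjusted p = 0.0845) and Prg2 (-1.09, adjusted p = 0.0811) of eosinophils were called lower in XX mice. These calls are over both gonadal sexes, where 1.21% of all genes were called lower. Without XYF F9 and XYM 9 together, Ly6c2 (-0.48, adjusted p = 0.0208), Epx (-0.46, adjusted p = 0.106) and Prg2 (-0.65, adjusted p = 0.149) were not called, and Mpo (-1.04, adjusted p = 0.0487) and Elane (-0.84, adjusted p = 0.0994) were. With all mice, the median of the neutrophil list was -2.01 in females and -0.41 in males, and no marker was called in either. Without XYF F9 and XYM 9 together, it was -1.38 in females, where 5 of 8 markers were called lower in XX mice, and 0.31 in males, where 1 was called higher. Their part in the Ccl6 and Ccl24 values was not tested.

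Between males and females, Cxcl9, Cxcl2, Cxcr6, Ccr9 and Ccr3 were lower in males, and the B cell receptors Cxcr5 and Ccr6 were higher, in the difference averaged over XX and XY mice. XXM against XXF mice gave 1 called member higher (2.94%) and 5 lower (14.7%), where 1.30% of all genes tested were called higher and 2.91% lower. XYM against XYF mice gave 2 higher (5.88%) and 3 lower (8.82%), near the 7.63% and 8.13% of all genes. Averaged over both, 2 were called higher (5.88%) and 5 lower (14.7%), where 1.96% of all genes were called higher and 5.36% lower. The median difference over the 34 members tested was -0.05 in XX, -0.16 in XY and -0.15 over both, beside -0.01, 0.02 and 0.02 over all genes. These comparisons share their groups with those of XX and XY mice, so that a call of XXM mice in both kinds rests on the same 5 mice. The count for XYM against XYF mice was 9 without XYF F8, where 19.4% of all genes were called, 9 without XYM 9 (20.9%), and 8 without XYF F9 and XYM 9 together (22.1%), beside 15.8% with all mice.

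**Figure D3:**
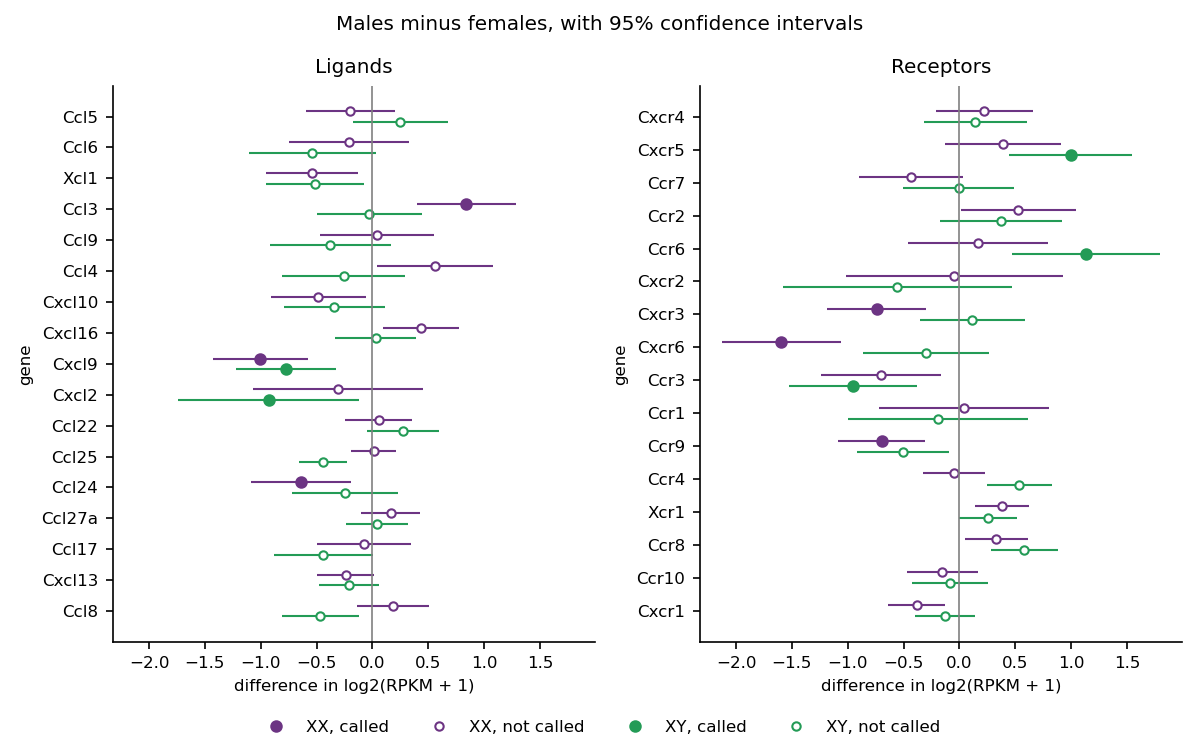
Differences in log2(RPKM + 1) between males and females (horizontal axis) for the 17 ligands and 16 of the 17 receptors tested, in XX (purple) and XY mice (green), with lines for 95% confidence intervals. Filled points are called, and those to the left of 0, such as Cxcl9 in both, are lower in males.

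Cxcl9, induced by interferon gamma in macrophages and dendritic cells and a ligand of Cxcr3 (Entrez Gene 17329, chromosome 5 from 92321331 to 92328079), was lower in males with either sex chromosome complement. Cxcl9 stood at 2.82, 2.51, 2.65, 2.90 and 2.26 in XXF F1 to F5 and at 1.86, 2.65, 2.62 and 1.86 in XYF F6 to F9. In males, Cxcl9 stood at 1.97, 1.26, 1.81, 1.33 and 1.76 in XXM 2, 5, 6, 7 and 8 and at 0.94, 1.46, 1.52, 1.63 and 1.80 in XYM 9, 12, 13, 15 and 16. Every female was above every male of the same sex chromosomes. The mean was 2.63 ± 0.26 in XXF (SD, n = 5), 2.25 ± 0.45 in XYF (SD, n = 4), 1.63 ± 0.31 in XXM (SD, n = 5) and 1.47 ± 0.32 in XYM mice (SD, n = 5). The male minus female difference was -1.0 (SE 0.20, adjusted p = 0.00485) in XX, -0.78 (SE 0.21, adjusted p = 0.0148) in XY mice and -0.89 (SE 0.15, adjusted p = 0.000454) over both, all called and held without each mouse in turn. Cxcl10, the neighbouring gene and also a ligand of Cxcr3, was chosen beside it after its values were seen, and differed by -0.41 (adjusted p = 0.0444) over both, below the threshold of size. Its mean RPKM was 6.17 in XXF, 7.09 in XYF, 4.12 in XXM and 5.57 in XYM mice.

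The promoters of this pair are shown because both genes are interferon-induced. They are the 250 bases before each start in RefSeq on GRCm38.p6, from the minus strand, at chr5:92328080-92328329 for Cxcl9 and chr5:92348890-92349139 for Cxcl10. Capitals mark matches on either strand to the interferon-stimulated response element (GAAA, any 2 bases, GAAA) or to a kappa B like run (GGG, any 5 bases, CC). TTCNNNGAA, the gamma-activated site, matched neither.
Cxcl9: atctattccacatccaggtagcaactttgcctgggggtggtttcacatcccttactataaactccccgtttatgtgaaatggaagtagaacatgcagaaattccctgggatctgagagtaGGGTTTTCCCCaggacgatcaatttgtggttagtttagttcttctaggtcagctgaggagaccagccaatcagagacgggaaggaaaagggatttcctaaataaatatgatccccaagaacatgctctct
Cxcl10: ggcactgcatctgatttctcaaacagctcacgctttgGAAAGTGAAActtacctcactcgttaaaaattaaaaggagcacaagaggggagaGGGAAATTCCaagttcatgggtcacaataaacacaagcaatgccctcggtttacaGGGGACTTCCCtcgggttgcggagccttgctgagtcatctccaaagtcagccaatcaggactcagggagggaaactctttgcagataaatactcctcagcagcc
The Cxcl9 window held 2 overlapping matches to the kappa B like run, the outer one beginning 130 bases before the start. That of Cxcl10 held 1 response element match beginning 213 bases before the start and 3 kappa B like matches, 2 of them overlapping. Of the 32851 starts in the table, 2.98% held a response element match in this window, 7.02% a gamma-activated site and 45.8% a kappa B like run. For the 47 starts of the 40 members in the table these counts were 3, 4 and 25. A match is a description of letters, not of binding.

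Cxcl2, which draws neutrophils through Cxcr2 (Entrez Gene 20310, chromosome 5 from 90903899 to 90905938), was lower in males. Cxcl2 stood at 0.91, 1.63, 2.44, 2.25 and 2.24 in XXF F1 to F5 and at 1.35, 2.79, 2.47 and 3.54 in XYF F6 to F9. In males, Cxcl2 stood at 1.38, 1.64, 1.61, 1.66 and 1.63 in XXM 2, 5, 6, 7 and 8 and at 2.55, 0.95, 1.95, 1.44 and 1.15 in XYM 9, 12, 13, 15 and 16. XYF F9 was the highest of all mice and XYM 9 the highest male, and the groups overlapped. The male minus female difference was -0.93 (SE 0.38, adjusted p = 0.0741) in XY mice and -0.62 (SE 0.26, adjusted p = 0.0844) over both, and both were called. In XX mice it was -0.31 (adjusted p = 0.709), not called. In XY mice it was -0.59 without XYF F9, and the call was lost without any 1 of XYF F7 and F9 and XYM 12, 15 and 16 (difference -0.89 to -0.59, adjusted p 0.106 to 0.233), and with no filter on low values (-0.93) or only the compared groups in the fit (-0.93), with an adjusted p of 0.0234 to 0.233 over all alternatives. Over both the call was lost without any 1 of XXF F3, F4 and F5, XYF F7 and F9, XXM 2, 5, 6, 7 and 8 and XYM 12, 15 and 16 (difference -0.63 to -0.45, adjusted p 0.104 to 0.174), without XYF F9 and XYM 9 together (-0.57), and with a pseudocount of 0.1 (-0.78), no filter on low values (-0.62) or limma-voom (-0.83), with an adjusted p of 0.0230 to 0.174 over all alternatives. The 8 neutrophil markers gave no call between males and females, with a median of 0.72 in XX mice, the other way, -0.91 in XY mice and -0.10 over both. Without XYF F9 and XYM 9 together, 4 were called higher in XXM than in XXF mice and 5 lower in XYM than in XYF mice. Their summed RPKM was 4598, 3862, 5305, 5072 and 4418 in XXF F1 to F5 and 13011, 16593, 7959 and 55153 in XYF F6 to F9. In males it was 6643, 5658, 7392, 4917 and 4334 in XXM 2, 5, 6, 7 and 8 and 56836, 3129, 9224, 4060 and 3860 in XYM 9, 12, 13, 15 and 16. The 2 highest mice were those with the highest Cxcl2 of their groups, none of the markers was at 0 in all mice, and the part of these cells was not tested.

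Cxcr5, which brings B cells and follicular helper T cells to the follicle (Entrez Gene 12145, chromosome 9 from 44511787 to 44526444), was higher in males. Cxcr5 stood at 7.17, 6.34, 6.17, 6.86 and 6.72 in XXF F1 to F5 and at 5.51, 6.48, 6.54 and 5.95 in XYF F6 to F9. In males, Cxcr5 stood at 6.43, 7.09, 7.21, 7.40 and 7.07 in XXM 2, 5, 6, 7 and 8 and at 6.40, 7.42, 7.06, 7.20 and 7.49 in XYM 9, 12, 13, 15 and 16. All XYM mice but XYM 9 were above the XYF mice, and XYF F6 was the lowest of all. The mean was 6.65 ± 0.40 in XXF (SD, n = 5), 6.12 ± 0.48 in XYF (SD, n = 4), 7.04 ± 0.36 in XXM (SD, n = 5) and 7.11 ± 0.44 in XYM mice (SD, n = 5). The male minus female difference was 0.99 (SE 0.26, adjusted p = 0.0125) in XY mice and 0.69 (SE 0.18, adjusted p = 0.00985) over both, and both calls held without each mouse in turn. In XX mice it was 0.39 (adjusted p = 0.427), not called. Its exons share 110 of 2899 bases with Bcl9l on the other strand.

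Ccr6, the receptor of Ccl20 on B cells, some dendritic cells and Th17 cells (Entrez Gene 12458, chromosome 17 from 8236041 to 8258519), was also higher in XYM mice. Ccr6 stood at 5.15, 4.07, 3.58, 4.63 and 4.11 in XXF F1 to F5 and at 3.49, 4.13, 5.01 and 3.83 in XYF F6 to F9. In males, Ccr6 stood at 4.12, 4.56, 4.58, 4.72 and 4.39 in XXM 2, 5, 6, 7 and 8 and at 4.62, 5.58, 5.62, 4.81 and 5.62 in XYM 9, 12, 13, 15 and 16. XYM 12, 13 and 16 were the highest of all mice, above XXF F1 and XYF F8, the highest females. The mean was 4.31 ± 0.60 in XXF (SD, n = 5), 4.12 ± 0.65 in XYF (SD, n = 4), 4.48 ± 0.23 in XXM (SD, n = 5) and 5.25 ± 0.49 in XYM mice (SD, n = 5). The male minus female difference was 1.13 (SE 0.32, adjusted p = 0.0154) in XY mice, called and held without each mouse in turn, and 0.17 (adjusted p = 0.824) in XX mice, not called. Over both it was 0.65 (SE 0.22, adjusted p = 0.0332), called, and lost without any 1 of XXF F3 and XYF F6 (difference 0.55 to 0.56, adjusted p 0.0629 to 0.0833). No read of its ligand Ccl20 was found.

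B cell markers were also higher in males. Of the 8 markers, 7 were called higher in XYM than in XYF mice, 1 in XXM than in XXF mice and 6 over both, with medians of 0.83, 0.49 and 0.64. Of all genes tested, 7.63%, 1.30% and 1.96% were called higher there. Among the markers called over both, Fcer2a differed by 0.78 (adjusted p = 0.00497), Cr2 by 0.70 (adjusted p = 0.000145), Pax5 by 0.66 (adjusted p = 0.00690), Blk by 0.61 (adjusted p = 0.00199) and Cd79a by 0.60 (adjusted p = 0.00227). The markers summed to an RPKM of 3013, 2892, 2524, 2854 and 2786 in XXF F1 to F5 and 1592, 2582, 2630 and 1324 in XYF F6 to F9. In males they summed to 4048, 4411, 3898, 3993 and 3650 in XXM 2, 5, 6, 7 and 8 and 2276, 3630, 3023, 3863 and 3426 in XYM 9, 12, 13, 15 and 16. Without XYF F9 and XYM 9 together, Pax5 (0.56, adjusted p = 0.00920) and Blk (0.57, adjusted p = 0.000518) were not called over both, nor was Cd79b in XY mice (0.47, adjusted p = 0.0866), and the other 6 calls in XY mice held. All males but XYM 9 were above all females, and XYF F6 and XYF F9 were the lowest of all. Cd79b was the most abundant marker, and none was at 0 in all mice. The part of B cell numbers in the Cxcr5 and Ccr6 values was not tested.

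Cxcr6 was lower in males among XX mice. Its male minus female difference was -1.60 (SE 0.25, adjusted p = 0.000638) in XX mice, where every XXF mouse was above every XXM mouse, and -0.95 (SE 0.18, adjusted p = 0.00164) over both. Both calls held without each mouse in turn. In XY mice it was -0.30 (adjusted p = 0.411), not called. Ccr9, the receptor of Ccl25 on gut-homing T cells and plasmacytoid dendritic cells (Entrez Gene 12769, chromosome 9 from 123767211 to 123783457), was lower in males. Ccr9 stood at 3.07, 3.20, 2.87, 3.14 and 3.17 in XXF F1 to F5 and at 2.75, 3.25, 2.67 and 2.02 in XYF F6 to F9. In males, Ccr9 stood at 2.18, 2.15, 2.44, 2.28 and 2.93 in XXM 2, 5, 6, 7 and 8 and at 1.84, 2.36, 2.17, 2.26 and 2.23 in XYM 9, 12, 13, 15 and 16. The XXF mice were high, and among XXM mice XXM 8 alone overlapped with them. The difference was -0.70 (SE 0.19, adjusted p = 0.0297) in XX mice and -0.60 (SE 0.14, adjusted p = 0.00411) over both, and both were called. In XY mice it was -0.51 (adjusted p = 0.0598), below the threshold of size. The call over both was lost without any 1 of XYF F7, XXM 2 and 5 and XYM 9 (difference -0.57 to -0.50, adjusted p 0.00526 to 0.00885), below the threshold of size. Parts of its exons overlap with Slc6a20a and unnamed transcripts.

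T cell markers were lower in males. All 8 were called lower in XXM than in XXF mice, 7 in XYM than in XYF mice and 7 over both, with medians of -1.63, -0.78 and -1.25. Of all genes tested, 2.91%, 8.13% and 5.36% were called lower there. Over both, Cd8b1 differed by -1.70 (adjusted p = 1.07e-05), Cd8a by -1.35 (adjusted p = 7.62e-06), Cd3e by -1.15 (adjusted p = 7.04e-05) and Trac by -1.09 (adjusted p = 0.000123). The markers summed to an RPKM of 1179, 1657, 1484, 1199 and 1459 in XXF F1 to F5 and 1179, 1503, 1141 and 593 in XYF F6 to F9. In males they summed to 534, 570, 506, 387 and 385 in XXM 2, 5, 6, 7 and 8 and 359, 582, 542, 754 and 657 in XYM 9, 12, 13, 15 and 16. All females but XYF F9 were above the males, Trac was the most abundant marker, and none was at 0 in all mice. The part of T cell numbers in the Cxcr6, Cxcr3 and Ccr9 values was not tested. Cd4, Cd8a and Cd8b1 were also called lower in XXM than in XYM mice, as Cxcr3 was.

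**Figure D4:**
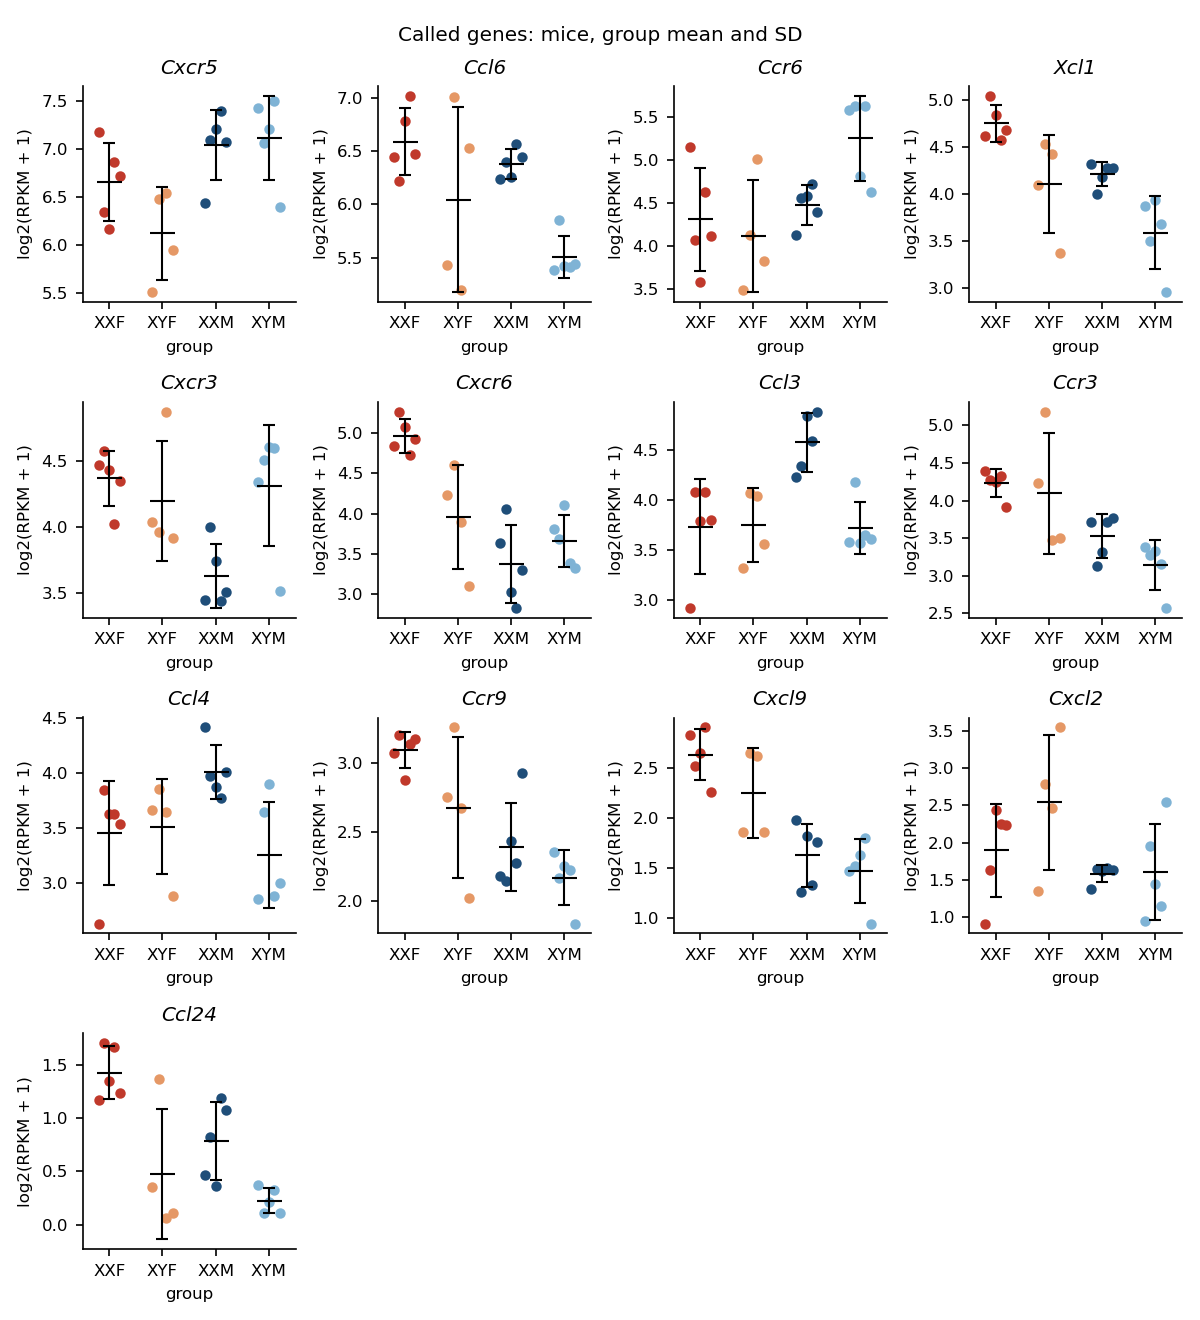
The 13 members called in at least 1 comparison, with 1 point per mouse, and the mean and SD of each group, as log2(RPKM + 1). Cxcr6 and Ccl3 set 1 group apart from the others (XXF and XXM), and Cxcl9 sets females above males of the same sex chromosomes.

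Ccr3, the eotaxin receptor of eosinophils and basophils (Entrez Gene 12771, chromosome 9 from 124017825 to 124031692), was lower in males. Ccr3 stood at 4.39, 4.27, 4.25, 4.33 and 3.92 in XXF F1 to F5 and at 4.24, 5.18, 3.47 and 3.50 in XYF F6 to F9. In males, Ccr3 stood at 3.72, 3.13, 3.31, 3.71 and 3.77 in XXM 2, 5, 6, 7 and 8 and at 2.57, 3.38, 3.27, 3.33 and 3.15 in XYM 9, 12, 13, 15 and 16. Every female lay above every male of the same sex chromosomes, with XYF F7 the highest and XYM 9 the lowest. The mean was 4.23 ± 0.18 in XXF (SD, n = 5), 4.10 ± 0.81 in XYF (SD, n = 4), 3.53 ± 0.29 in XXM (SD, n = 5) and 3.14 ± 0.33 in XYM mice (SD, n = 5). The male minus female difference was -0.96 (SE 0.27, adjusted p = 0.0171) in XY mice and -0.83 (SE 0.19, adjusted p = 0.00415) over both, and both calls held without each mouse in turn, although in XY mice it was -0.59 without XYF F7. In XX mice it was -0.71 (adjusted p = 0.121), not called. Of the 8 markers of eosinophils, basophils and mast cells, none was called between males and females, although without XYF F9 and XYM 9 together Mcpt8 (-1.03, adjusted p = 0.0153) and Prg2 (-0.86, adjusted p = 0.0480) were called lower in XYM than in XYF mice. Their medians were 0.02 in XX and -0.28 in XY mice. They summed to an RPKM of 28.7, 42.3, 31.9, 33.4 and 31.3 in XXF F1 to F5 and 78.9, 44.4, 51.5 and 201 in XYF F6 to F9. In males they summed to 26.4, 30.8, 40.7, 29.9 and 34.0 in XXM 2, 5, 6, 7 and 8 and 163, 24.9, 57.1, 34.3 and 22.0 in XYM 9, 12, 13, 15 and 16. The highest sums were in XYF F9 and XYM 9, and XYM 9 had the lowest Ccr3 of all mice. Prg2 was the most abundant marker, and none was at 0 in all mice. The part of these cells in the Ccr3 values was not tested.

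Ccl24, the ligand of Ccr3, was called lower in XXM than in XXF mice as well, with a difference of -0.64 (SE 0.21, adjusted p = 0.0897). That call was lost without any 1 of XXF F2, F3, F4 and F5, XYF F6, XXM 2, 5 and 6 and XYM 12, 13, 15 and 16 (difference -0.69 to -0.54, adjusted p 0.101 to 0.230), and with a pseudocount of 0.1 (-1.20), a pseudocount of 0.5 (-0.86), no filter on low values (-0.64), array weights (-0.57) or limma-voom (-1.26), with an adjusted p of 0.0172 to 0.230 over all alternatives.

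Dendritic cell, erythroid and proliferation markers also differed between males and females. Of all genes tested, 7.63% were called higher and 8.13% lower in XYM than in XYF mice. These shares were 1.30% and 2.91% for XXM against XXF mice, and 1.96% and 5.36% over both. The dendritic cell markers summed to an RPKM of 45.7, 36.3, 40.5, 47.2 and 40.2 in XXF F1 to F5 and 40.2, 42.6, 58.7 and 50.4 in XYF F6 to F9. In males they summed to 76.6, 73.1, 77.7, 79.8 and 95.6 in XXM 2, 5, 6, 7 and 8 and 55.0, 67.2, 90.3, 77.6 and 64.0 in XYM 9, 12, 13, 15 and 16, with Itgax the most abundant and none at 0 in all mice. Of 7, 4 were called higher in males in each comparison, led by Siglech of plasmacytoid cells (1.24, adjusted p = 6.09e-06 over both) and with Flt3, Cd209a and Clec9a. Xcr1, the receptor of Xcl1 on the dendritic cells that carry Clec9a, differed by 0.32 (adjusted p = 0.0106) over both and was not called. All 6 erythroid markers in the table were called lower in XYM than in XYF mice, among them Hba-a1 (-3.22, adjusted p = 0.00177), and 4 of 6 proliferation markers were. Between XXM and XXF mice no erythroid or proliferation marker was called, with medians of -0.90 and -0.43. Of the 9 macrophage markers, Cd5l, Hmox1 and Spic were called lower in XYM than in XYF mice, none was called between XXM and XXF mice, and Cd5l and Vcam1 were called lower in males over both, with medians of -0.50, -0.23 and -0.48. Their part in the Cxcl9 values was not tested. Of the 7 plasma cell markers, Irf4 was called higher and Tnfrsf17 lower in XYM than in XYF mice. Itga2b, Gp9, Pf4 and Ppbp, 4 of 6 platelet markers, were called lower there, and without XYF F9 and XYM 9 together Gp9 was called (-0.96, adjusted p = 0.00516) and Itga2b (-0.57, adjusted p = 0.0375), Pf4 (-0.81, adjusted p = 0.108) and Ppbp (-0.57, adjusted p = 0.0843) were not.

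**Figure D5:**
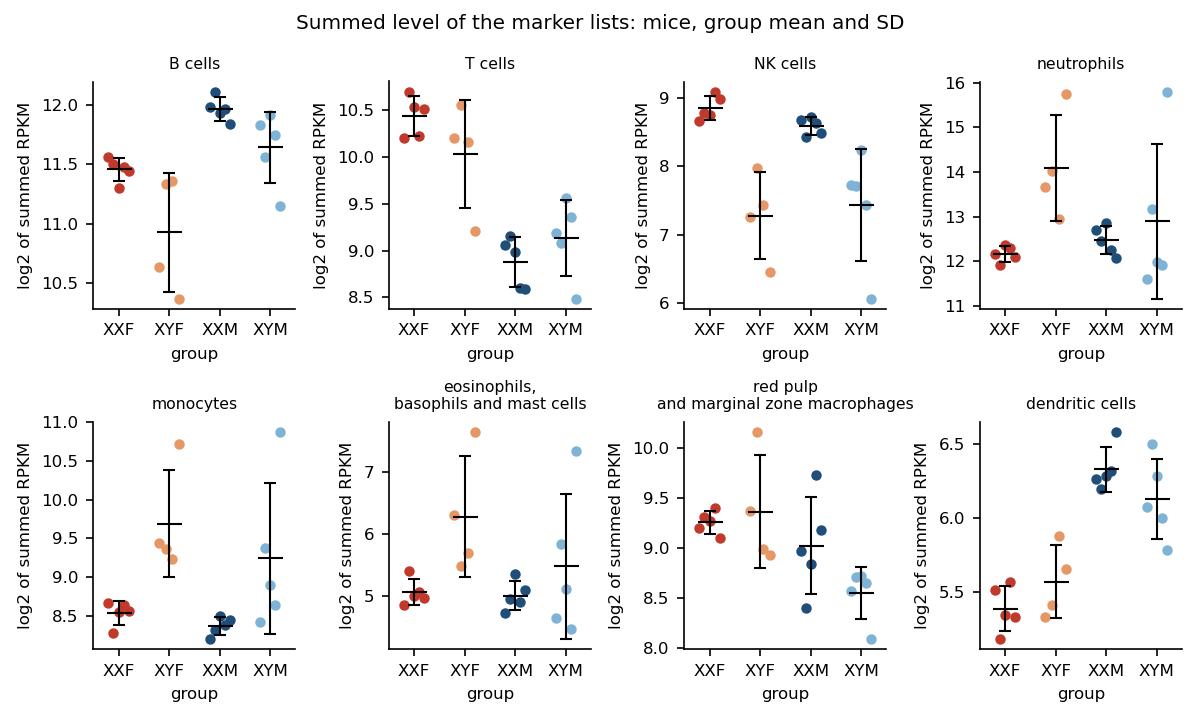
Summed RPKM of the marker lists of 8 cell types on a log2 scale, with 1 point per mouse, and the mean and SD of each group. NK cell markers are higher in XX mice, T cell markers lower and dendritic cell markers higher in males, and XYF F9 and XYM 9 have the highest neutrophil and monocyte sums of all mice.

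Whether the XX minus XY difference itself differs between females and males was tested as an interaction. None of the 34 members was called by limma, where 0.0846% of all genes were, and 9 members had an unadjusted p under 0.05, as did 21.0% of all genes. The count was also 0 by limma-voom on the recovered reads. The differences of differences were 1.30 (SE 0.37, adjusted p = 0.132) for Cxcr6, 0.86 (SE 0.31, adjusted p = 0.150) for Cxcr3, -0.87 (SE 0.31, adjusted p = 0.150) for Ccl3, -0.82 (SE 0.36, adjusted p = 0.207) for Ccl4 and 0.97 (SE 0.43, adjusted p = 0.214) for Ccr6. They were 0.02 (adjusted p = 0.970) for Xcl1, -0.33 (adjusted p = 0.612) for Ccl6, 0.39 (adjusted p = 0.459) for Ccl24, 0.61 (adjusted p = 0.323) for Cxcr5, -0.25 (adjusted p = 0.707) for Ccr3, 0.19 (adjusted p = 0.691) for Ccr9 and -0.62 (adjusted p = 0.491) for Cxcl2. So no member called in 1 sex or complement alone was shown to differ between them. The same term is the change of the male minus female difference from XX to XY mice. The count was 4 without XYF F8, where 5.28% of all genes were called, 4 without XYM 9 (11.9%), 2 without XYM 15 (5.70%), 1 without XXF F3 (8.44%) and 3 without XYF F9 and XYM 9 together (5.51%). The 4 of 34 without XYM 9 are near the share of all genes.

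Ligands can be set beside their receptors. Xcl1 was higher in XX mice, and Xcr1 differed by 0.27 (adjusted p = 0.0904), not called. Cxcl9 was lower in males of both complements, whereas its receptor Cxcr3 was called lower in XXM than in XXF mice and not between XYM and XYF mice. Cxcr6 was lower in XXM than in XXF mice, and its ligand Cxcl16 differed there by 0.44 (adjusted p = 0.134), not called. Ccl25, the ligand of Ccr9, differed by -0.44 (adjusted p = 0.00666) between XYM and XYF mice, below the threshold of size. The log2(RPKM + 1) scale understates the change of so low a gene. Its RPKM was 1.95 to 2.32 in XYF and 1.04 to 1.52 in XYM mice, without overlap.

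Of 9 family genes outside the symbol rule, 8 were tested. Between XYM and XYF mice, 5 of these were called, where 15.8% of all genes were. Without XYF F9 and XYM 9 together, 1 was called higher and 2 lower, where 22.1% of all genes were called. Cx3cr1 (mean RPKM 11.7) and Ackr4 (0.568) were called in none of the comparisons. Cx3cl1, at a mean RPKM of 0.112, missed the filter. Ackr3, a scavenging receptor of Cxcl12, was higher in XX mice, by 0.89 (adjusted p = 0.00782) in females, 0.70 (adjusted p = 0.0320) in males and 0.80 (adjusted p = 0.000388) over both. Between XYM and XYF mice, Ackr1 (-1.94, adjusted p = 0.0177), Ccrl2 (-0.64, adjusted p = 0.00768), Pf4 (-0.82, adjusted p = 0.0662) and Ppbp (-0.72, adjusted p = 0.0234) were lower and Ackr2 (0.78, adjusted p = 0.0120) higher. Without XYF F9 and XYM 9 together, Pf4 (-0.81, adjusted p = 0.108) and Ppbp (-0.57, adjusted p = 0.0843) were not called. The list's median was -0.07 for XX minus XY and -0.38 for males minus females, both averaged. Without XYF F9 and XYM 9 together, these medians were 0.17 and -0.30. Ackr1 is expressed on erythroid cells, whose markers were also lower there. Pf4 and Ppbp are platelet genes and are themselves among the 4 platelet markers called lower there, with Itga2b and Gp9. Of these 4, only Gp9 was called without XYF F9 and XYM 9 together. The part of erythroid cells and platelets was not tested. All 30 genes of receptor signalling were tested. Rgs16, which ends G protein signals, was called lower in XX mice over both (-0.81, adjusted p = 0.0516), and Rgs1 was called lower in males (-0.63, adjusted p = 0.00942). Between XYM and XYF mice, 2 of the 30 were called higher and 1, Rgs1, lower, where 7.63% of all genes were called higher and 8.13% lower. The higher ones were Pik3cg (0.71, adjusted p = 0.0178) and Dock2 (0.77, adjusted p = 0.0369), which carry receptor signals to the cytoskeleton. Without XYF F9 and XYM 9 together, 5 were called higher and 1 lower, where 22.1% of all genes were called. The medians of this list were 0.01 for XX minus XY and 0.15 for males minus females.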

How the data were processed

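Alignment to mm10 (Subread) and counting (featureCounts) are the authors' work. The paper names a stranded library kit (KAPA) and the sample labels another kit (NEBNext Ultra), and which was used is unknown. The authors deposited log2 RPKM, which the recovered reads show to be log2(RPKM + 1) plus 0.0001. No further scaling was applied. Recovered reads lay within 0.05 of whole numbers for 21317 of 21317 genes with reads. The length used equalled the annotated exon length for 1061 genes, and for 112 genes the read numbers were multiplied to meet it. Whole numbers alone therefore do not fix the scale of a gene's reads, least of all for a gene with few reads.

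Group means were fitted with limma 3.58.1 (R 4.3.3), and p values were adjusted by Benjamini-Hochberg over 14186 genes. Tables and figures were made with Python 3.11.15, numpy 2.4.6, pandas 2.3.3 and matplotlib 3.10.9. The 17 members named with values in every mouse were the 13 called in any comparison, the 3 ligands and 3 receptors with the highest mean RPKM, X-linked Cxcr3, and the pair Cxcl13 and Cxcr5. Members and lists were chosen with earlier results of these data known.

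Tried as alternatives were other pseudocounts (0.1, 0.5), filters (none, RPKM of 1) and scalings (median ratio, quantile), fits of the compared groups only, without trend, with array weights or by limma-voom, other thresholds, and leaving out each mouse. Reads were not realigned, EdgeR was not run, and ligand and receptor values were not correlated. The values of 1 receptor and 1 B cell marker are not reported here, and both stay in the counts and sums.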

Additional observations from a re-analysis of the deposited data

Results flagged for a closer look

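Within a group, Ccl3 in XXF F1 stood at 2.92 (the others from 3.79 to 4.08), Ccl3 in XYM 13 stood at 4.18 (the others from 3.57 to 3.65), Ccl4 in XXF F1 stood at 2.63 (the others from 3.53 to 3.84) and Ccl6 in XYM 13 stood at 5.85 (the others from 5.39 to 5.44). Further, Ccr3 in XYM 9 stood at 2.57 (the others from 3.15 to 3.38), Cxcl2 in XXM 2 stood at 1.38 (the others from 1.61 to 1.66), Cxcr3 in XYF F8 stood at 4.88 (the others from 3.91 to 4.04) and Cxcr3 in XYM 9 stood at 3.52 (the others from 4.34 to 4.61). All are log2(RPKM + 1). Of 68 groups of values looked at, 8 had a mouse set apart, and about 1 in 20 groups would have 1 by chance.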

How the results depend on the processing

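With 1 mouse left out, the count of called members was 0 to 7 for XX against XY females (2 with all mice), 0 to 6 for males (5) and 2 to 4 over both (3). It was 5 to 7 for males against females with XX (6), 4 to 9 with XY (5) and 5 to 8 over both (7). For the difference between the XX effects of females and males it was 0 to 4 (0).

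Beside each count, brackets give the share of all genes called in the same fit. In females it was 1 with no filter on low values (0.671%) or median ratio rescaling (1.30%), 0 with only the compared groups (0.620%) or an adjusted p threshold of 0.05 (0.726%), and 4 with array weights (1.83%). In males it was 1 with no filter (0.990%), 2 with only the compared groups (0.853%), 0 at 0.05 (0.599%) and 3 by limma-voom (2.81%). Over both it was 8 with no threshold on the difference (6.93%). Between XYM and XYF mice it was 10 with a pseudocount of 0.1 (21.0%), 8 with 0.5 (18.6%), 9 with array weights (19.2%), 12 with no threshold on the difference (39.9%) and 10 by limma-voom (20.6%). For males against females over both it was 18 with no threshold on the difference (38.5%). For the difference between the XX effects it was 5 with array weights (13.5%), near the share of all genes.

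Leaving out XYF F9 and XYM 9 together was chosen after seeing the data. It gave 0 in XX against XY females (0.895%), 8 between XYM and XYF mice (22.1%) and 3 for the difference between the XX effects (5.51%).

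Of 886 refits of 28 called results, 138 lost the call and 0 reversed it. The call held in every refit for 14 of the 28 results, and 10 of the 28 were lost at an adjusted p threshold of 0.05. The cause was not tested.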
